A study of Homo sapiens with 12 samples.

Results

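The comparison described here sets metastin-10 against a control peptide in Ishikawa cells transfected with an siRNA against GPR54. Its members are the 3 arrays whose titles read GPR54-suppressed Ishikawa treated with metastin-10 and the 3 arrays titled GPR54-suppressed Ishikawa, 6 of the 12 arrays in all. Ishikawa is an established endometrial adenocarcinoma line. All 12 arrays come from cells that carried an siRNA for 48 h and then received a peptide for 24 h, so no group is untreated. In the first group here the peptide was 10 µM metastin-10, and in the second it was a control peptide whose sequence and concentration the labels do not state. The other 6 arrays, 3 a peptide, carried a negative control siRNA in place of the GPR54 siRNA. The labels number 3 biological replicates in each group but do not say how they were cultured apart, so p-values measure the spread between these samples. The stated aim was to find the genes that respond to the peptide and to ask whether GPR54 carries the response.

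Metastin-10 (kisspeptin-10) is the amidated C-terminal fragment of the protein encoded by KISS1, which was first described as a suppressor of metastasis. GPR54 is the product of KISS1R, a receptor coupled to Gq. When the peptide binds, phospholipase C beta is activated, inositol trisphosphate releases calcium, and protein kinase C and MAP kinases follow. In the brain this axis drives gonadotropin-releasing hormone neurons, and in the placenta and in tumours it is known for limiting cell migration.

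Gene levels were read on Affymetrix U133 Plus 2.0 arrays as log2 RMA values, on which a unit of 1 is a 2-fold difference. Of 54675 probe sets, the 62 controls were left out and 54613 were tested, and each gene was represented by its brightest probe set, which gave 19775 genes. A bound in this text is the end of the 95% interval that lies farther from 0. Such an interval describes 1 probe set, and a p-value that misses its threshold does not by itself show that a level was unchanged. The values are array values: the background level is unknown, so a narrow interval at a dim probe set may not bound the change of the transcript.

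The cells had the profile of an epithelial line. KRT18, a simple-epithelium keratin, averaged 13.99 over the 12 arrays, the adhesion protein EPCAM 13.05, E-cadherin (CDH1) 12.17 and PAX8, a transcription factor of Müllerian epithelium, 10.81. Marker lists of other cell types had median levels of 4.08 (leukocyte), 4.93 (stromal), 5.32 (endothelial) and 5.91 (smooth muscle), against 5.16 for the median probe set. The leukocyte gene PTPRC was at 3.48, the endothelial cadherin CDH5 at 3.42 and the stromal proteoglycan LUM at 2.56. The highest markers of these lists were the collagen gene COL1A1 at 9.84 (stromal), VWF at 6.97 (endothelial) and ACTG2 at 6.61 (smooth muscle). The lowest of the 8 epithelial markers, MUC1, was at 7.81, below COL1A1. Of the 32 measured markers of 5 cell types, 0 were called between the peptides.

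KISS1R, the target of the siRNA, showed no fall under the GPR54 siRNA label. It read 9.46, 9.45 and 9.36 after control peptide and 9.60, 9.42 and 9.28 after metastin-10. These groups overlap, and both contain a value above every control siRNA array with control peptide, which read 9.39, 9.32 and 9.14. Among control peptide arrays, GPR54 siRNA minus control siRNA was 0.14 (adjusted p = 0.9998, limma, 95% interval -0.07 to 0.35), and the lower end of that interval leaves 95.2% of the control level. A two-sided exact permutation test gave p = 0.20, where 3 arrays against 3 cannot go below 0.10. Where the siRNA binds relative to this probe set is not stated, and protein was not measured. The 6 arrays are therefore called the arrays labelled GPR54 siRNA throughout.

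Between the peptides, KISS1R averaged 9.42 ± 0.05 (SD, n = 3) after control peptide and 9.43 ± 0.16 after metastin-10. The difference was 0.01 with an interval of -0.20 to 0.22, so a rise past 1.16-fold or a fall past 1.15-fold lay outside it. KISS1, the gene of the peptide's own precursor, was dim, at 4.38, 4.14 and 4.2 with control peptide and 4.25, 4.21 and 4.18 with metastin-10, and its difference was -0.03 (-0.22 to 0.16). The metastin-10 arrays lay within the range of the control peptide arrays for this gene.

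Across the 54613 probe sets, 0 passed an adjusted p of 0.05 between the peptides (0% called, limma with Benjamini-Hochberg adjustment, smallest adjusted p = 0.999997). At an unadjusted p under 0.05 there were 1206 (2.21%, and 8.82% with array weights, again with 0 called), of which 709 were higher and 497 lower. If no level differed, 5% (2731) would be expected, so 1206 is not an excess. Of those 1206, 94.8% lay below a level of 6, where 61.7% of all probe sets lie. The share at an unadjusted p under 0.05 was 3.99% below a level of 4 and 0.0413% from 8 to 10. From 8 to 10 the estimates had an SD of 0.05, against a median half-width of 0.21, so intervals there were wide for the spread of the estimates. Why the share fell below 5% was not tested. The estimated differences had an SD of 0.11 over probe sets, 15 exceeded 0.5 in size and 0 exceeded 1. Under control siRNA the same arithmetic on the other 6 arrays gave an SD of 0.17, with 545 beyond 0.5 and 20 beyond 1. The estimates narrowed steadily with level in the arrays labelled GPR54 siRNA, from an SD of 0.13 below a level of 4 to 0.03 at 12 and over, and the plot of difference by level shows both shapes.

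**Figure D1:**
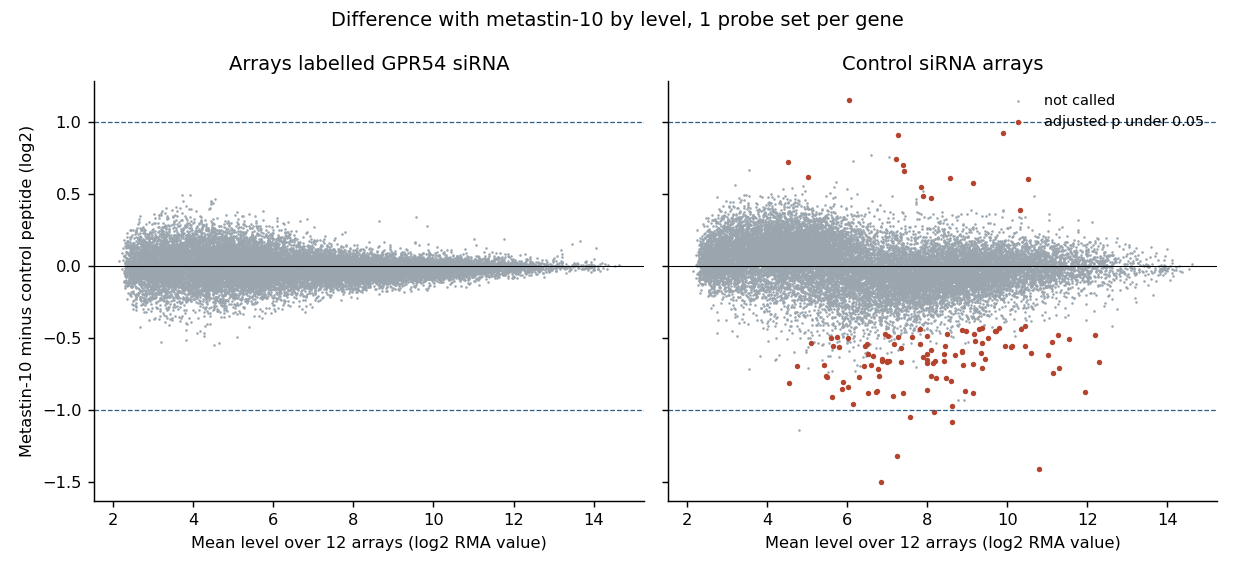
Each point is a gene, with its mean level over 12 arrays on the x axis (log2 RMA value) and its metastin-10 minus control peptide difference on the y axis (log2). In the arrays labelled GPR54 siRNA no point is called and the cloud narrows to the right, while under control siRNA 105 genes were called lower and 15 higher (red). Dashed lines mark a 2-fold difference.

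How large an effect of metastin-10 the arrays leave room for was read from the intervals. The median half-width of the 95% interval was 0.25 on the log2 scale. The whole interval lay within a 2-fold change in either direction for 54474 probe sets (99.7%), within 1.5-fold for 52341 (95.8%), and between a rise of 25% and a fall of 20%, called the 25% range here, for 25771 (47.2%). At 1 probe set per gene these shares were 99.97%, 97.7% and 57.3% of 19775 genes. Under control siRNA, where 234 probe sets were called, the shares over all probe sets were 99.3%, 89.3% and 35.4%, with the same median half-width. A high share within 2-fold therefore does not by itself mark a missing response. In the arrays labelled GPR54 siRNA the interval passed 2-fold for 6 genes, among them CPLX1, CTSZ, FCF1, GTF2I and ZNF480.

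The bound depended on the level. Below a level of 4, where olfactory receptors and tissue-restricted genes such as OR10A3 lie, the median bound was 1.28-fold and 95% of the 16925 probe sets had a bound under 1.48-fold. From 4 to 6 the medians were loosest, at 1.29-fold, with 95% of 16791 under 1.52-fold. From 6 to 8 the median was 1.24-fold over 10376 probe sets, and from 8 to 10, the band of KISS1R, it was 1.19-fold over 7262. From 10 to 12 it was 1.16-fold over 2590, and at 12 and over, the band of keratins and ribosomal proteins, 1.13-fold over 669, with 95% of these under 1.19-fold. The share held within the 25% range rose from 30.8% in the band from 4 to 6 to 98.8% at 12 and over, while the share within 2-fold was lowest from 6 to 8, at 99.46%.

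Single genes show the ends of that range. RPL41, a protein of the large ribosomal subunit, read between 14.62 and 14.63 in all 6 arrays, and its interval was -0.14 to 0.15. EIF4A3, an RNA helicase of the exon junction complex, read 11.56 to 11.59 with the same interval width. CORO2A, an actin-associated protein, had the narrowest interval of its band from 4 to 6 (-0.13 to 0.17). Its other probe set, at a level of 5.87, was wider at -0.32 (-0.78 to 0.14). OR10A3, an olfactory receptor gene, had the widest below 4, at -0.38 to 0.73, with values of 2.78, 3.78 and 3.17 against 2.97, 3.41 and 3.89. Its 6 values overlap between the peptides and spread over a whole log2 unit.

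**Figure D2:**
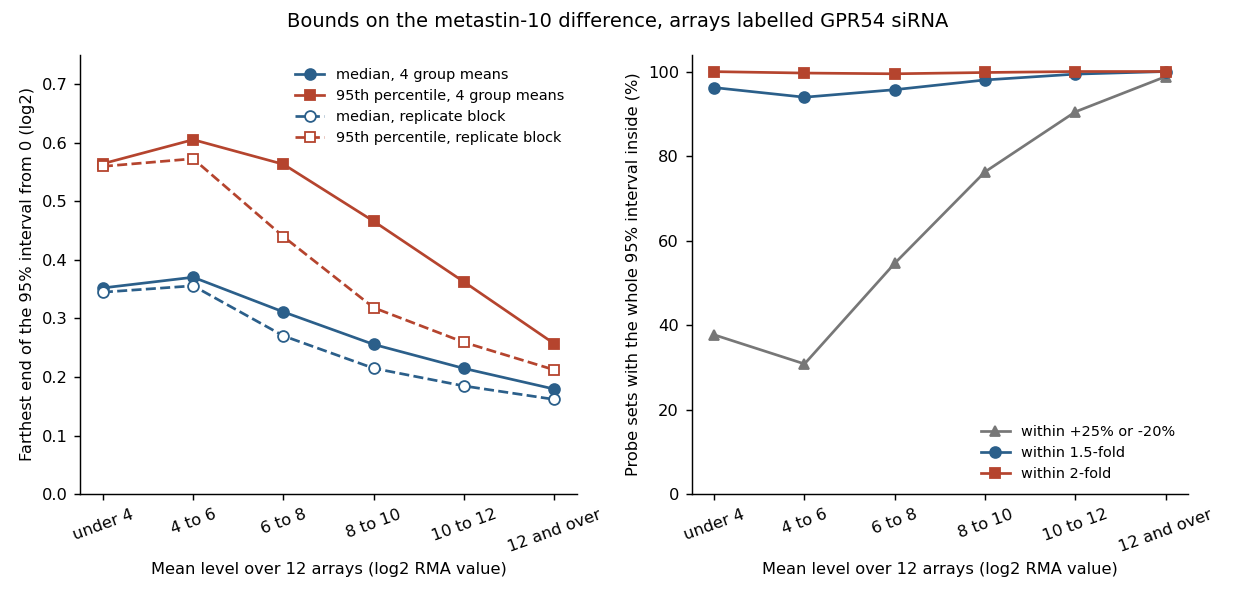
Left, the end of the 95% interval farther from 0 (log2) by band of mean level, as its median (circles) and 95th percentile (squares), with the 4 group means (filled) and with the replicate block (open). Right, the percent of probe sets whose whole interval lies within the 25% range, 1.5-fold and 2-fold; the line of the 25% range is lowest from 4 to 6 (30.8%) and reaches 98.8% at 12 and over.

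The bounds were also tested as such. A pair of one-sided moderated tests against a change of 2-fold or more, adjusted over all probe sets, passed for 54562 (99.9%), which leaves 51 for which a 2-fold effect was not set aside. Against 1.5-fold it passed for 53509 (98.0%), and against the 25% range for 24208 (44.3%). With the replicate number as a block the 51 became 0. Intervals that hold for all 54613 probe sets at once (Bonferroni) are much wider, with a median half-width of 1.03, and lay within 2-fold for 18621 (34.1%) and within 1.5-fold for 0. By level that simultaneous 2-fold statement held for 18.0% of probe sets from 4 to 6 and for 97.2% at 12 and over. For KISS1R itself the simultaneous interval was -0.86 to 0.87.

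The widest intervals belonged to genes in which the replicate 3 arrays stood apart, with either peptide. FCF1, a ribosome assembly factor, read 7.29, 7.12 and 8.36 with control peptide and 7.18, 7.19 and 8.22 with metastin-10. Replicate 3 was high in both groups, and within each replicate number the peptides lay close together. The difference was -0.06 with an interval of -1.12 to 1.0, and -0.34 to 0.21 with the replicate block. CTSZ, a lysosomal cathepsin, showed the mirror image at 8.27, 8.11 and 6.43 against 8.30, 8.22 and 6.48. Its interval was -1.24 to 1.37, or -0.19 to 0.32 with the block.

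GTF2I, a transcription factor, the histone chaperone NPM3, PDAP1 and the zinc finger gene ZNF480 were also high in replicate 3. SRRM2, a splicing scaffold, HIP1, BAZ2A, TMC5 and MIDN were low there with CTSZ. All 12 genes picked by this measure had replicate 3 on the same side in the control siRNA arrays, as had 55.9% of all probe sets. The error that sets the intervals is pooled over both siRNA labels, so this is a description that the choice of genes partly fixes. Of the 139 probe sets whose interval passed 2-fold, all 139 had replicate 3 on the same side under both siRNA labels, at a median distance of 1.05 against 0.13 for all probe sets, and 138 lay within 2-fold with the block. Their median peptide difference was 0.09 in size. Replicate 3 also had a smaller 3 prime minus 5 prime actin difference (0.36 and 0.29, against 0.66 to 0.76 in the other 4 arrays), whose part in these values was not tested.

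**Figure D3:**
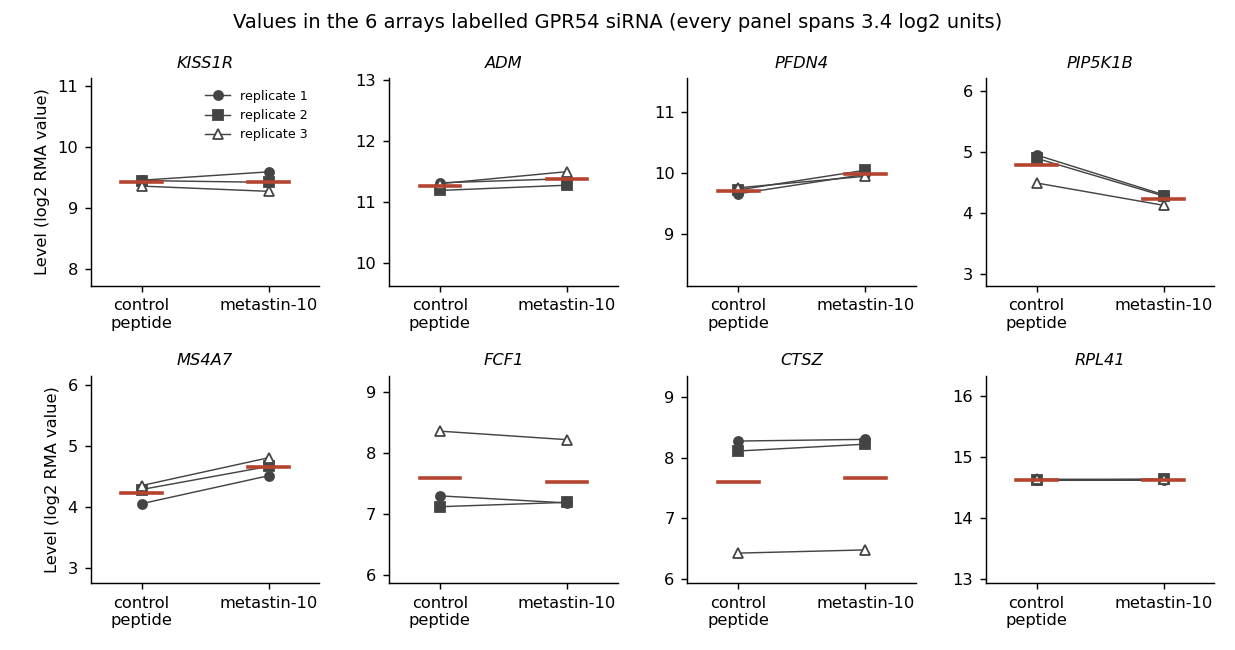
Values of 8 genes in the 6 arrays labelled GPR54 siRNA (log2 RMA value); lines join arrays of the same replicate number, and red bars are group means. The group means of KISS1R and RPL41 lie close together, and that of ADM is 0.12 higher with metastin-10, with overlapping groups. PFDN4 and MS4A7 lie higher and PIP5K1B lower with metastin-10. None of these was called, and FCF1 and CTSZ are split by replicate 3.

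The replicate number set more of the spread among these 6 arrays than the peptide did. Summed over probe sets, 61.8% of the sum of squares lay between replicate numbers, 12.4% between the peptides and 25.8% in the remainder. The remainder has 2 degrees of freedom and the peptide 1, and per degree of freedom the remainder came to 12.9%, close to the peptide. Under control siRNA the peptide took 26.7%, against 12.6% per degree of freedom of the remainder. Between levels of 8 and 10 the peptide took 4.68% here and 24.7% under control siRNA. Arrays with the same number and different peptides differed by an SD of 0.15 to 0.21 over probe sets, while those with the same peptide and different numbers differed by 0.19 to 0.31.

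**Figure D4:**
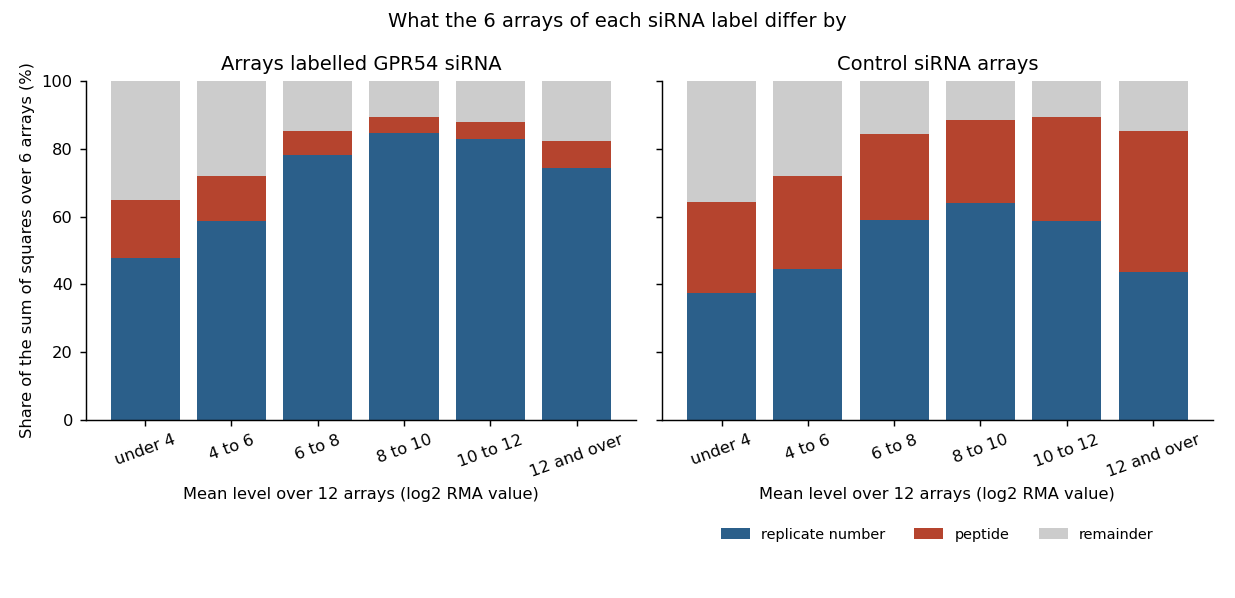
Share of the sum of squares over the 6 arrays of each siRNA label (%) that lies between replicate numbers, between peptides and in the remainder, by band of mean level (log2 RMA value). The peptide's share between levels of 8 and 10 is 4.68% in the arrays labelled GPR54 siRNA and 24.7% under control siRNA.

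The 3 same-numbered pairs of arrays did not share a pattern of metastin-10 differences. Over 54613 probe sets, which are not independent replicates, the pair differences correlated at 0.02, -0.04 and -0.01 (Pearson r, as a description) in the arrays labelled GPR54 siRNA, and at 0.44, 0.18 and 0.17 under control siRNA. Over the 10521 probe sets at a level of 8 or more the values were 0.03, -0.21 and 0.14 here and 0.50, 0.62 and 0.63 there. In 39 probe sets all 3 pairs moved by over 0.3 in the same direction, against 851 under control siRNA, and the brightest of the 39 averaged 5.66. The groups of 3 did not overlap in 3044 probe sets (5.57%), against 9081 (16.6%) under control siRNA. Probe sets of the same gene also moved together less closely: over 4915 genes with a further probe set at a level of 6 or more, r was 0.17 here and 0.64 there.

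The genes that metastin-10 moved under control siRNA give a scale for this comparison, since they were measured on arrays that the 6 here do not share. There, 0.428% of probe sets were called, 0.386% lower and 0.0421% higher (234 in all, and 422 with the replicate block). Leaving out any single control siRNA array other than replicate 3 with metastin-10 (186) left 71 to 131. At 1 probe set per gene that was 105 lower genes with a median of -0.64 and 15 higher genes with a median of 0.62; having been picked in that comparison, their sizes in it are a description. In the arrays labelled GPR54 siRNA 0 of the 120 were called. The 105 had a median of 0.02 and ranged from -0.21 to 0.19, and the 15 had a median of -0.04 and ranged from -0.09 to 0.10. Over all 19775 genes the median was -0.01.

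For each of the 120 genes, the 95% interval here stopped short of the size seen under control siRNA, and all 120 lay within 1.5-fold. For 96 of the 105 lower genes and 13 of the 15 higher genes it stopped short of 50% of that log2 size. For each gene both comparisons have the same half-width, and the genes were picked for passing the threshold under control siRNA. A gene near 0 here therefore stops short largely by that choice, so these counts of intervals that stopped short are a description. Of the 105, 72 lay above 0 here and 33 below, against 44.2% of all genes above 0. The loosest bounds were those of HSD11B2 (0.55), the enzyme that inactivates cortisol, and NRG1 (0.34), a ligand of ERBB receptors.

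ADM, which encodes the vasodilator peptide adrenomedullin, read 11.32, 11.19 and 11.30 with control peptide and 11.38, 11.28 and 11.50 with metastin-10. The groups overlap, with replicate 3 of metastin-10 the highest. Its difference was 0.12 (-0.09 to 0.33), against -1.41 under control siRNA. SCGB1D1, a secretoglobin, read 7.47, 7.25 and 7.22 against 7.54, 7.36 and 7.36, again overlapping, a difference of 0.11 (-0.18 to 0.39) where control siRNA gave -1.5. G0S2, an inhibitor of adipose triglyceride lipase, read 8.42, 8.35 and 8.28 against 8.49, 8.49 and 8.41, at 0.12 (-0.04 to 0.28). The matrix protease MMP10 read 8.85, 8.86 and 8.94 against 8.98, 9.04 and 9.07. Its groups do not overlap, with metastin-10 the higher, as 5.57% of all probe sets do not overlap in either direction. The difference of 0.14 (-0.04 to 0.33) was not called, and its sign is opposite to the -0.97 under control siRNA.

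The remaining lower genes were CYP1A1, a cytochrome P450 that metabolises aromatic hydrocarbons (-0.03, -0.22 to 0.15), COXFA4L2, a mitochondrial protein (0.18, -0.12 to 0.47), SPAG4 (0.16, -0.04 to 0.36) and DPYSL4 (0.09, -0.15 to 0.33). The SPAG4 groups, like those of MMP10, do not overlap, with metastin-10 the higher. Among the genes that were higher under control siRNA, ANKRD1, a transcriptional cofactor of stretched muscle, read 5.98, 5.73 and 6.04 against 6.03, 5.97 and 5.96. Its difference was 0.07 (-0.15 to 0.29), where control siRNA gave 1.15. TAGLN, an actin-binding protein, was at -0.06 (-0.26 to 0.15), the matrix protease ADAMTS5 at -0.04 (-0.33 to 0.26) and the connective tissue growth factor gene CCN2 at -0.06 (-0.33 to 0.20). The other higher genes, KCNJ2, KCNJ16, NRG1 and CREB5, lay between -0.09 and 0.10.

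**Figure D5:**
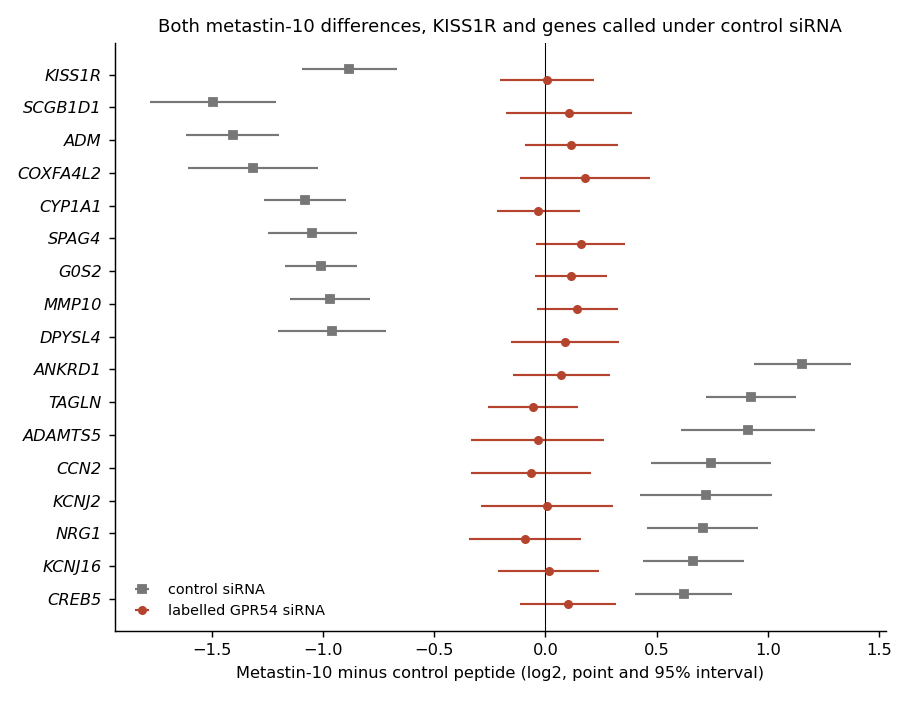
Metastin-10 minus control peptide (log2, point and 95% interval) for KISS1R and 16 genes called under control siRNA, in the arrays labelled GPR54 siRNA (circles) and under control siRNA (squares). The circles lie between -0.09 and 0.18, and no circle's interval meets the square's point, which the choice of called genes favours.

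Whether the 2 metastin-10 differences differ from each other was tested as an interaction, labelled GPR54 siRNA minus control siRNA. It called 28 probe sets (0.0513%), 25 of them higher (0.0458%), and 45 with the replicate block. It called 32 and 30 without the replicate 3 arrays of metastin-10 under control siRNA and under the GPR54 label, and 6 to 14 without any other single array. At 1 probe set per gene, 19 of the 105 lower and 2 of the 15 higher genes passed. ADM (1.52) and G0S2 (1.13) had the smallest adjusted p, 0.00279 each, in limma. For KISS1R, which was 8.43, 8.42 and 8.35 with metastin-10 under control siRNA and at 9.14 or above in the other 9 arrays, the interaction was 0.89 (0.59 to 1.19, adjusted p = 0.05, just under the threshold) and passed in 7 of 21 alternative settings. The remaining 99 of the 120 genes did not pass, so for them a difference between the siRNA labels was not shown.

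Downstream of the receptor, 0 of 21 measured kisspeptin signalling genes were called. All 21 lay within 1.5-fold, against 97.7% of all genes, and 12 within the 25% range, against 57.3% of all genes. Their median was -0.04 against -0.01 for all genes, and 6 of the 21 were above 0, against 44.2% of all genes. The Gq subunit GNAQ was at -0.01 (-0.21 to 0.20) and its relative GNA11 at 0.01 (-0.18 to 0.19). The phospholipase C beta genes PLCB3 (-0.19, -0.42 to 0.03) and PLCB4 (-0.18, -0.42 to 0.06) had the lowest values. PLCB3 read 6.28, 6.48 and 6.46 against 6.16, 6.28 and 6.19, so the groups do not overlap, though both hold a value that rounds to 6.28. PLCB4 read 8.21, 8.0 and 8.06 against 7.92, 7.97 and 7.85, also without overlap, while its other probe set was at -0.05 (-0.34 to 0.25). Of all probe sets 5.57% had groups without overlap. The protein kinase C gene PRKCA had the loosest bound of the list, at 1.45-fold.

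Immediate early and MAP kinase feedback genes, which respond to such signalling within hours, showed 0 of 27 called at 24 h, with a median of -0.01. EGR1, a zinc finger transcription factor, was at 0.02 (-0.21 to 0.24), FOS at 0.05 (-0.16 to 0.26) and JUN at -0.01 (-0.18 to 0.17). DUSP1, a MAP kinase phosphatase, lay lowest. It read 7.44, 7.28 and 7.22 with control peptide and 7.19, 7.06 and 6.98 with metastin-10. The groups do not overlap, as in 5.57% of all probe sets. Its difference was -0.24 (-0.49 to 0.0038, unadjusted p = 0.053), and it was not called. Its other probe sets were at 0.11 and 0.06.

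Under control siRNA, 11 of 31 measured hypoxia and glycolysis genes were called lower, against 105 of all 19775 genes. The list was written with earlier results of these data known. In the arrays labelled GPR54 siRNA 0 of the 31 were called. The mean of the list in each array was 10.66, 10.66 and 10.57 with control peptide and 10.70, 10.70 and 10.59 with metastin-10. Within each replicate number metastin-10 was the higher, by less than the gap between replicate 3 and the others. All 31 members lay within 1.5-fold and 24 within the 25% range, and the median was 0.02 (-0.34 under control siRNA). The median level of the list was 10.42, and 90.5% of all probe sets from 10 to 12 lay within the 25% range. DDIT4, an inhibitor of mTORC1 induced by low oxygen, was at 0.04 (-0.12 to 0.20) and NDRG1, a stress-induced gene, had the loosest interval (-0.25 to 0.55).

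Of the genes of invasion and cell shape, 0 were called. Among 24 matrix proteases and inhibitors, with a median of -0.04, MMP2 was lowest at -0.14 (-0.42 to 0.15) and the plasminogen activator PLAT highest at 0.24 (-0.05 to 0.53). TIMP2, an inhibitor of these proteases, was at -0.13 (-0.33 to 0.07). The 30 adhesion and motility genes had a median of -0.01, with the integrin subunit ITGA3 lowest at -0.19 (-0.52 to 0.14). The 21 epithelial junction and keratin genes had a median of -0.01, and 20 of them lay within the 25% range. Their median level was 10.61, and 90.5% of all probe sets from 10 to 12 lay within that range. KRT19, called lower under control siRNA, was at 0.01 (-0.14 to 0.16). The 19 mesenchymal transition genes had a median of -0.07, with S100A4, a calcium-binding protein of motile cells, at 0.12 (-0.03 to 0.27).

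Of the growth and survival genes, 0 were called. Of 26 S phase genes 23 lay within the 25% range and 20 were below 0, with a median of -0.02. Of 28 G2 and mitosis genes 24 lay within the 25% range and 20 were below 0, with a median of -0.02. Above 0 were 6 of the 26 and 8 of the 28, against 44.2% of all genes, whose median was -0.01. Whether these lists fell together was not tested. The share within the 25% range rises with the level, and was 76.3% of all probe sets from 8 to 10 and 90.5% from 10 to 12. MCM2, a subunit of the replicative helicase, was at -0.08 (-0.25 to 0.09) and the mitotic kinesin KIF20A at -0.08 (-0.26 to 0.10). The p53 targets (18 measured) had a median of -0.01, with the cell cycle inhibitor CDKN1A at 0.13 (-0.04 to 0.31), and the 17 apoptosis regulators had a median of -0.02. All 15 cytosolic ribosomal protein genes and 21 of 22 oxidative phosphorylation genes lay within the 25% range. Their median levels were 13.86 and 11.90, and 98.8% of all probe sets at 12 and over lay within that range.

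The RNA interference machinery, which any siRNA engages, had 0 of 13 members called and the lowest median of the 29 lists, -0.07. Of its members 10 were below 0 and 3 above, against 44.2% of all genes above 0. DICER1, the nuclease that cuts small RNA precursors, had an interval of -0.59 to 0.68, and AGO2, the slicing Argonaute, was at -0.08 (-0.32 to 0.16). The 28 interferon response genes had a median of 0.03. TRIM22 had an unadjusted p of 0.028, at -0.23 (-0.44 to -0.03) and a level of 3.82. The list of RFamide and related receptors, the family to which KISS1R belongs by ligand type, also holds the ligand gene NPFF. It had the highest median, 0.10, with 9 of 10 above 0, against 44.2% of all genes, at a median level of 3.86. All but KISS1R averaged below 6.4, among them the neuropeptide FF gene NPFF (0.19, -0.02 to 0.40) and its receptor NPFFR1 (0.16, -0.05 to 0.37).

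Across the 29 lists together 512 genes were measured, 0 were called, 508 (99.2%) lay within 1.5-fold against 97.7% of all genes, and 4 had an unadjusted p under 0.05, against 1.81% of all genes. These 4 were TRIM22, the von Willebrand factor gene VWF (-0.28, -0.56 to -0.01), the lysozyme gene LYZ (-0.30, -0.53 to -0.08) and the metallothionein MT1M (-0.19, -0.38 to -0.0048). The other probe sets of VWF (0.0014, -0.32 to 0.32) and LYZ (0.04, -0.36 to 0.44) showed no fall. The 4 outside 1.5-fold were THBS1, IGFBP4, BAX and DICER1.

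The genes with the smallest p in this comparison are given as values, since none passed (adjusted p = 0.999997 for each, limma). Of 20 such genes, 10 on each side, 18 averaged below a level of 6 and their differences were 0.27 to 0.55 in size. PIP5K1B, a kinase that makes phosphatidylinositol bisphosphate, the substrate of phospholipase C, read 4.96, 4.90 and 4.50 with control peptide and 4.31, 4.28 and 4.13 with metastin-10. The groups do not overlap and the difference was -0.55 (-0.81 to -0.28), but its other, dimmer probe set was at 0.14 (-0.07 to 0.35). MS4A7, a membrane protein of macrophages, read 4.05, 4.28 and 4.34 against 4.51, 4.66 and 4.80, a difference of 0.43 (0.20 to 0.66). Its groups do not overlap either, and its other probe sets were at -0.09 and 0.02.

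PFDN4, a subunit of the prefoldin chaperone, was the brightest of the 20, at a mean level of 9.83. It read 9.66, 9.72 and 9.76 with control peptide and 9.98, 10.04 and 9.94 with metastin-10, without overlap. The difference was 0.28 (0.09 to 0.46, unadjusted p = 0.0061). A further probe set of PFDN4, at a level of 6.22, gave 0.25 (0.04 to 0.46, unadjusted p = 0.023), and the dimmest gave 0.02 (-0.27 to 0.31). Under control siRNA the brightest was at 0.07.

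The other higher genes included GPR183, an oxysterol receptor of lymphocytes (0.35), the folate hydrolase FOLH1 (0.35), the immune receptor TMIGD2 (0.33) and the olfactory receptor OR3A1 (0.49). The other lower genes included MYOT, a protein of the muscle Z-disc (-0.31), the transporter SLCO5A1 (-0.36) and ZBTB16, a zinc finger repressor (-0.36), with TEX36 lowest among them at -0.51. All 20 had groups without overlap, which selection by p favours, and 5.57% of all probe sets did so. In the control siRNA arrays 0 of the 20 were called, 13 had the same sign, and the interaction called 0. Of the 7 further probe sets of 5 of these genes, 4 had the same sign and 1, that of PFDN4, had an unadjusted p under 0.05.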

How the data were processed

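Total RNA of 12 cultures was hybridised to Affymetrix U133 Plus 2.0 arrays. Values are log2 and were normalized with RMA by the authors before deposit (per the submitters' processing notes), with software and version not given in the sources used here. RMA quantile-normalizes arrays, so a shift of most genes would not be seen. The number of arrays limits the precision, and scanner files were not used here.

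The model, fitted in R 4.3.3 with limma 3.58.1, had 4 group means over 12 arrays (8 residual degrees of freedom, empirical Bayes), with Benjamini-Hochberg adjustment over 54613 probe sets and a threshold of 0.05. Adjusted p-values, SEs and 95% intervals come from this fit. Gene symbols came from the platform's annotation: 41091 probe sets had 1 gene, 1801 several and 11721 none listed. Coordinates are left out because no build was attached to the values.

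The comparison, the genes and the 29 lists (573 entries, 512 genes measured) were chosen with earlier results of these data known. Named are KISS1R and KISS1, the 10 smallest p on each side, up to 8 genes on each side called under control siRNA without overlap, 2 members per list by p, the narrowest and widest interval per level band, and 6 genes on each side by replicate 3; other members are named as examples of a list, chosen after their values were seen. Deviations of same-numbered arrays from group means correlated at 0.37, 0.26 and 0.52, and the labels do not state a shared batch. Deviations cancel out within a group of 3, so a shared shift of replicate 3 alone also raises the values of replicates 1 and 2. Whether the numbers pair replicates 1 and 2 is therefore not shown. Alternatives were a replicate block, the 2 groups alone, replicate 3 as a batch, replicates 1 and 2 only, array weights, a variance trend, ordinary standard errors, a level filter, 1 probe set per gene, centring and leaving out each array. An item among these is not reported here.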

Additional observations from a re-analysis of the deposited data

Results flagged for a closer look

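For 11 named genes the metastin-10 difference in the arrays labelled GPR54 siRNA differed from that under control siRNA by the interaction test (labelled GPR54 siRNA minus control siRNA, log2, adjusted p under 0.05 in limma over all probe sets). The genes had been called under control siRNA on the same arrays, so the control siRNA side of each is not independent of how it was chosen. The interaction was 1.60 for SCGB1D1, 1.52 for ADM, 1.13 for G0S2, 1.11 for MMP10 and 1.21 for SPAG4, and these 5 passed in 20 of 21 alternative settings. It was 1.05 for CYP1A1, which passed in 19. COXFA4L2 (1.49) passed in 13 settings, ANKRD1 (-1.08) in 11 and TAGLN (-0.98) in 10. DPYSL4 (1.05) and KISS1R (0.89) passed in 7. No cause of these differences was tested.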

How the results depend on the processing

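The count of called probe sets for metastin-10 in the arrays labelled GPR54 siRNA was 0 in every setting run. Of 1901 values of 114 named genes, 1896 stayed within the gene's SD between arrays of the main value, and 5 moved farther. Many settings change the error but leave the difference itself identical. These are the replicate block, the 2 groups alone, replicate 3 as a batch, a variance trend, ordinary standard errors, the level filter and 1 probe set per gene. Values from them could not move, so the 1896 do not measure robustness. Changes of sign were not counted, because a reversal was defined only for called genes and none was called. With the replicate block, calls under control siRNA went from 234 to 422, interaction calls from 28 to 45 and calls by siRNA label with control peptide from 29 to 51, and the share at an unadjusted p under 0.05 here was 3.12%. The block changed no call between the peptides in the arrays labelled GPR54 siRNA. That share, 2.21%, became 4.62% with the 2 groups and the block, 3.46% with replicates 1 and 2 only, 8.82% with array weights and 0.923% above the median level. Calls under control siRNA were 77 with the 2 groups alone, 28 with these and the block, 532 with replicate 3 as a batch, 495 with array weights and 368 with a variance trend. Interaction calls were 73 with replicate 3 as a batch, 2 with replicates 1 and 2 only, 250 with array weights, 77 with a trend and 55 above the median level. The causes were not tested. Leaving out 1 array gave 71 to 186 calls under control siRNA, 6 to 32 interaction calls, 1.97% to 3.16% at an unadjusted p under 0.05 and 0.07 to 0.20 for KISS1R by siRNA label. It also left 89.7% to 92.7% within 1.5-fold and 99.3% to 99.4% within 2-fold. Over the other settings the median half-width ran from 0.19 to 0.28.

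The bounds rest on 3 arrays a group and apply to log2 RMA values at 24 h and a single dose. They do not cover a change shared by most genes, which RMA removes, and no background level was available for dim probe sets.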

Other observations

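The 15 probe sets whose difference exceeded 0.5 in the arrays labelled GPR54 siRNA lay at levels of 6.01 or lower, and none was called. TRA2A, a splicing regulator, had the largest at 0.60 (95% interval 0.25 to 0.95) and a level of 5.66 at this probe set, where control siRNA gave -0.62. DNAJC7, a cochaperone, was at 0.50 (0.26 to 0.74), against -0.48 under control siRNA. GART, an enzyme of purine synthesis, was at 0.50 (0.12 to 0.88), FHL5, a LIM protein, at 0.52 (0.21 to 0.82), and the sialyltransferase ST3GAL1 at -0.53 (-0.93 to -0.13). A probe set with no gene listed was at 0.52 (0.10 to 0.95) here and -1.61 under control siRNA. Each of these values is that of a single probe set. For TRA2A, DNAJC7 and FHL5 it is not the brightest probe set, which represents the gene elsewhere here. The values of the brightest are not given, so these differences are not those of the genes as a whole. The genes named here were chosen after their values were seen.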
